A study of Mus musculus with 2 samples.

Results

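Small pre-B and immature B cells were followed in mouse bone marrow as the cells that met a gate on transcript counts, 1175 of the 29952 cells that passed the quality filter (34099 cells in all). The cells were selected on their own measured counts. The gate asked for at least 2 UMIs (counted RNA molecules) over Cd79a and Cd79b, the signalling chains of the B cell receptor, and for fewer than 2 over Igll1 and Vpreb1, the surrogate light chain of earlier stages. It further asked for no Ighd or Fcer2a, which mark mature B cells, for at least 1 UMI over the 4 early genes Rag1, Rag2, Vpreb3 and Ebf1, and for fewer than 10 Jchain, no Siglech and no Cd3e UMIs, which keeps out plasma cells, plasmacytoid dendritic cells and T cells. The marrow came from young male mice of wild type genotype, with the strain given as C57B/6, kept for 16 weeks either on normal diet (the ND library) or on a high-fat feed, HFD, in which fat made up 60%. The cells were captured on the BD Rhapsody system in 1 library per diet. How many animals stand behind a library is not given, so animals, preparation and diet cannot be told apart, and no test between the diets was possible. The ND library gave 514 gated cells and the HFD library 661.

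In B cell development a large pre-B cell with a working heavy chain divides, then becomes a small pre-B cell that stops dividing and uses the RAG1 and RAG2 recombinase to rearrange its light chain genes, kappa first and lambda when kappa fails. A cell whose receptor reaches the surface is an immature B cell, which switches RAG off, loses the interleukin 7 receptor, gains antigen presentation genes and CD20 (Ms4a1), and leaves the marrow or stays to mature. Interleukin 7 from marrow stroma supports the dividing stages.

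The gated cells held 2193987 RNA UMIs in the ND library and 2408792 in the HFD library. Their median depth was 2418 UMIs per cell in ND (range 828 to 69919) and 2334 in HFD (913 to 58793), with medians of 1305 and 1260 genes and mitochondrial shares of 9.24% and 9.09%. A small group of cells was far deeper than the rest. Cells over 3 times the median of their library, 47 in ND and 54 in HFD, were 9.14% and 8.17% of the gated cells but held 41.5% and 35.4% of their UMIs. Among these deep cells 55.3% in ND and 35.2% in HFD had Mpo, the neutrophil progenitor peroxidase, against 8.14% and 7.08% of the other gated cells. The doublet caller Scrublet marked 21.3% and 25.9% of the deep cells against 3.64% and 3.95% of the others. Diet values are therefore given for all gated cells and again without the deep cells. Of 329 cell labels that occurred in both libraries, 1 fell among the gated cells.

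Markers of other lineages were also measured, and some were abundant. The 10 neutrophil markers summed to 6880.2 CPM (UMIs of a gene or list as a share of all UMIs, scaled to a fixed total) in ND and 12389 in HFD, and to 4788 and 6729.6 without the deep cells, with all 10 detected. In all gated cells the neutrophil sum was above the 4943 and 6317 CPM that the 4 markers of the gate reached together. Without the deep cells the order was reversed, with the 4 markers at 7688 and 8881 CPM, above the 10 neutrophil markers. T cells, taken as a background gate with at least 3 Cd3 UMIs and no Cd79a or Cd79b, carried 5535 and 12603 CPM of the same list, and 2121 and 2333 CPM without their own deep cells. The 10 erythroid markers stood at 1058 and 3280.5 CPM in the gated cells, at 243 and 3408 without the deep cells, and at 1459 and 228 in T cells. Of these erythroid genes Hba-a2, an alpha globin, had 53 UMIs in 9 ND cells and 1696 UMIs in 22 HFD cells, with 36.7% of the latter in 1 cell. The 7 eosinophil markers stood at 778 and 1563 CPM, and at 123 and 195 without the deep cells. The part of these transcripts in the diet ratios below was not tested. The 9 T cell markers summed to 38.7 and 37.8 CPM in the gated cells, and besides Cd3e, which the gate removed, Cd8b1 and Themis were at 0 in both libraries.

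The label was checked against genes of the B lineage. The 4 markers of the gate were found in the gated cells as the rule requires. Vpreb3, which assists assembly of the pre-B cell receptor, was seen in 93.8% of ND cells and 97.1% of HFD cells, Cd79a in 97.7% and 99.2%, Ebf1, a transcription factor that commits cells to the B lineage, in 80.4% and 79.4%, and Rag1 in 45.3% and 42.5%. Other B lineage genes, which the rule did not use, were also frequent. Pax5, the factor that holds B cell identity, was seen in 89.5% and 87.0% of cells. Ighm, the mu heavy chain, was seen in 98.6% and 98.9%, but 54.1% and 50.6% of T cells also had an Ighm UMI. Ighm UMIs were thus common outside the B lineage, whereas Pax5 was seen in 0.34% and 0.816% of T cells at median depths of 3672 and 3674 UMIs, deeper than the gated cells.

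**Figure D1:**
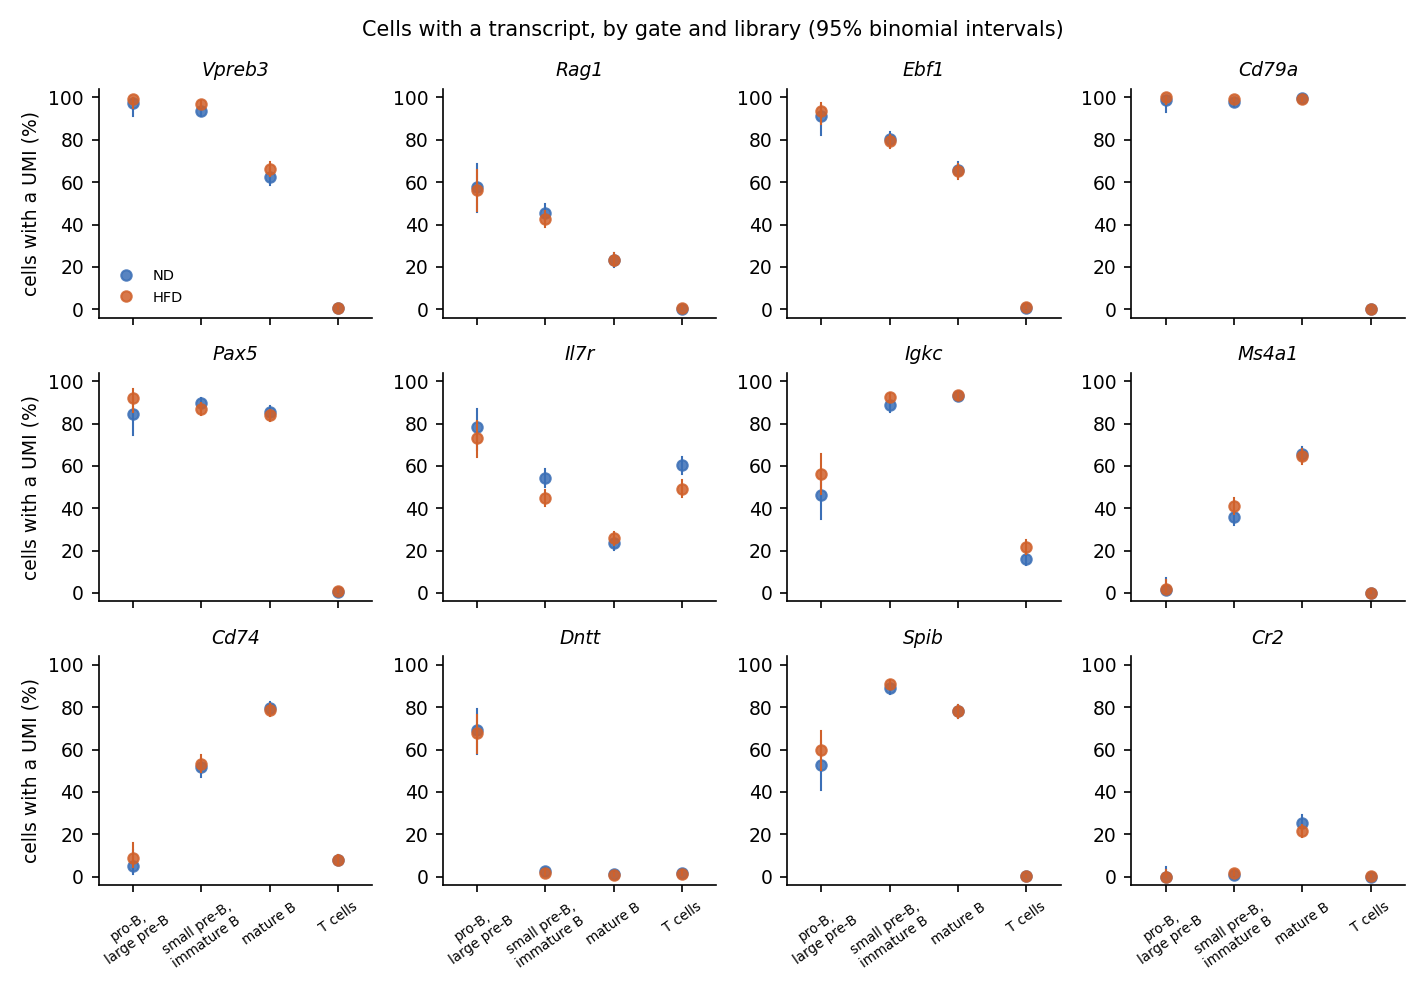
Share of cells with at least 1 UMI of each gene (y axis, percent) in the pro-B and large pre-B gate, the small pre-B and immature B gate, the mature B gate and T cells (x axis), with points for the ND and HFD libraries and lines for exact 95% binomial intervals. Igkc and Ms4a1 climb and Dntt and Il7r fall from the first to the second gate, and the 2 libraries lie close together for most genes.

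Cells at the edges of the gate differed from its centre. The 18 ND and 14 HFD cells at exactly 2 Cd79 UMIs had Pax5 in 27.8% and 28.6%, while the 47 and 54 cells that missed the gate at 1 Cd79 UMI had it in 8.51% and 5.56% and had Mpo in 66.0% and 64.8%. At the surrogate light chain limit, 11 and 17 cells with 1 UMI of Igll1 or Vpreb1 lay inside and had Il7r in 72.7% and 64.7%, and 6 and 7 cells with 2 UMIs lay outside and had it in 100% and 57.1%. Cells with 1 UMI of Ighd or Fcer2a (208 and 263) lay outside, yet their Pax5 share of 89.4% and 89.0% and their Ms4a1 share of 37.5% and 41.8% were close to those of the gated cells (35.99% and 41.1% for Ms4a1). The last limit separated unlike cells. The 143 and 191 cells with none of the 4 early genes had Pax5 in 7.69% and 3.66% and a median of 10923 and 12911 UMIs, whereas the 18 and 16 cells with exactly 1 such UMI had Pax5 in 44.4% and 50%.

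Set between its neighbours, the gated population held an intermediate place. The neighbours were a pro-B and large pre-B gate (at least 2 Igll1 and Vpreb1 UMIs, no Ighd or Fcer2a, 78 ND and 112 HFD cells) and a mature B gate (Ighd or Fcer2a present, fewer than 2 Igll1 and Vpreb1 UMIs, 645 and 786 cells). The mature B gate included 208 ND and 263 HFD cells with exactly 1 Ighd or Fcer2a UMI and at least 1 early gene UMI. These had Il7r in 48.1% and 49.0%, beside 54.3% and 44.8% of the gated cells. In the comparisons below, mature B cells means all cells of this gate. Since the gates were drawn on the same cells, these levels are descriptions. Dntt, the polymerase that adds bases at heavy chain joints, was seen in 69.2% and 67.9% of pro-B and large pre-B cells, in 2.53% and 1.82% of the gated cells, and in 1.70% and 1.47% of T cells. Ms4a1 was seen in 1.28% and 1.79% of pro-B and large pre-B cells, in 35.99% and 41.1% of the gated cells and in 65.4% and 64.5% of mature B cells. Spib, a factor that activates light chain and receptor signalling genes, did not follow this order and was most often seen in the gated cells (89.3% and 90.9%, against 52.6% and 59.8% before and 78.1% in both libraries after).

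Deep cells were left out of the gene rankings against the neighbours, by the same limit on UMIs, which left 467 and 607 gated cells, 46 and 65 pro-B and large pre-B cells, and 594 and 733 mature B cells. Highest over the pro-B and large pre-B gate were Cd74, the invariant chain of antigen presentation, and Ms4a1. Cd74 stood at 1487 CPM in ND and 1418 CPM in HFD against 6.57 and 38.7 CPM, and Ms4a1 at 717 and 891 CPM against 0 UMIs in either library. H2-Aa, Scd1, Polm (a polymerase of light chain joining) and Fcmr (a receptor for IgM) were among the next. Lowest, apart from the gate genes Igll1 and Vpreb1, were Erg, Dntt, Impdh1 and Lef1, with Lef1 at 39.7 and 35.3 CPM against 919.6 and 877 CPM. Lowest against the mature B gate was Cr2, the complement receptor of mature B cells (3.90 and 7.07 CPM against 191 and 161), followed by Gpr174, H2-Eb2 and Icosl. The replication gene Pclaf was among the 10 highest over the mature B gate (526 and 343 CPM against 157 in both libraries).

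Within the gate 2 poles could be told by Il7r, the interleukin 7 receptor, and Ms4a1. This split was chosen after the values were seen. In ND 242 cells had Il7r and no Ms4a1, 148 had Ms4a1 and no Il7r, 37 had both and 87 had neither. In HFD the counts were 251, 227, 45 and 138. Few cells carried both transcripts. In neutrophils with at least 10 UMIs of the granule genes Ngp, Camp and Ltf, which should lack these genes, Il7r was seen in 1.78% and 1.09% of cells and Ms4a1 in 0.0686% and 0.104%, at median depths of 5029 and 4887 UMIs.

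Transcripts of recombination and division lay mostly at the Il7r pole. Rag1 was seen in 58.3% of ND and 56.2% of HFD cells with Il7r only, and in 19.6% and 22.0% of cells with Ms4a1 only. Rag2 was seen in 26.0% and 27.5% of the former and in 3.38% and 3.52% of the latter. Mki67, a mark of dividing cells, was at 735 and 569 CPM in cells with Il7r only and at 26.0 and 21.6 CPM in cells with Ms4a1 only, both without the deep cells. The 10 genes that led the Il7r side by this ratio were Pclaf, Cenpe, Prim1, Ube2c, Cdca8, Rrm2, Top2a, Kif11, Mki67 and Cks1b, all genes of DNA replication or mitosis. With the deep cells included, Mki67 was seen in 33.9% of ND and 27.9% of HFD cells with Il7r only. The name small pre-B, a stage that stops dividing, therefore does not describe all cells at this pole.

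The 10 genes that led the Ms4a1 side were Hivep3, H2-DMb2, Ccnd2, Btla, Bank1, Dusp10, Cd40, Scd1, Cd74 and Fcmr. Cd74 stood at 4108 CPM in ND and 3323 CPM in HFD without the deep cells, against 401 and 449 CPM in cells with Il7r only. Cd22, an inhibitory co-receptor, was seen in 70.3% and 63.9% of cells against 22.7% and 19.1%. H2-Aa, a class II alpha chain, was seen in similar shares of cells at both poles (30.4% and 25.6% with Ms4a1 only, 30.2% and 27.9% with Il7r only), although its level was 537 and 314 CPM against 166 and 146 CPM. The Il7r pole was the deeper, with medians of 2756 and 2700.0 UMIs against 2318 and 2166 at the Ms4a1 pole. Deep cells were 11.2% and 11.6% of the Il7r pole and 6.76% and 4.41% of the Ms4a1 pole. Shares of cells with a UMI depend on depth, and the poles were not compared at equal depth.

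Light chain transcripts followed the same axis. The median cell with Il7r only held 11 Igkc UMIs in ND and 13 in HFD (quartiles 6 to 18 and 7 to 21), and the median cell with Ms4a1 only held 28 and 26 (13.8 to 40.3 and 11 to 44.5). The constant regions of the lambda chain (Iglc genes, summed) had a median of 0 UMIs at the Il7r pole in both libraries and of 6 and 5 at the Ms4a1 pole. Irf4, a factor that opens the light chain loci, was seen in 49.6% and 50.2% of cells with Il7r only and in 20.3% and 17.2% of cells with Ms4a1 only.

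Rag transcripts were rare where kappa was abundant. Rag1 or Rag2 was seen in 45 of 58 ND cells and 30 of 50 HFD cells with no Igkc UMI (77.6% and 60.0%), in 70.9% and 67.4% of cells with 3 to 9 Igkc UMIs, and in 52.0% and 56.1% of cells with 10 to 29. At 30 or more Igkc UMIs the share was 12.96% (exact 95% interval 7.27 to 20.8%) in ND and 12.4% (7.96 to 18.2%) in HFD, although this class had the highest median depth, at 2668 and 2475 UMIs. After each cell was thinned to 1000 UMIs, which left out 3 ND and 2 HFD cells, the share was 38.7% and 44.3% at 3 to 9 Igkc UMIs and 13.7% and 15.6% at 10 or more. The difference lay between low and high kappa at both depths, and the 2 libraries overlapped in every class. Rag1 and Rag2 were among the 4 early genes of the gate, so these shares are descriptions.

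**Figure D2:**
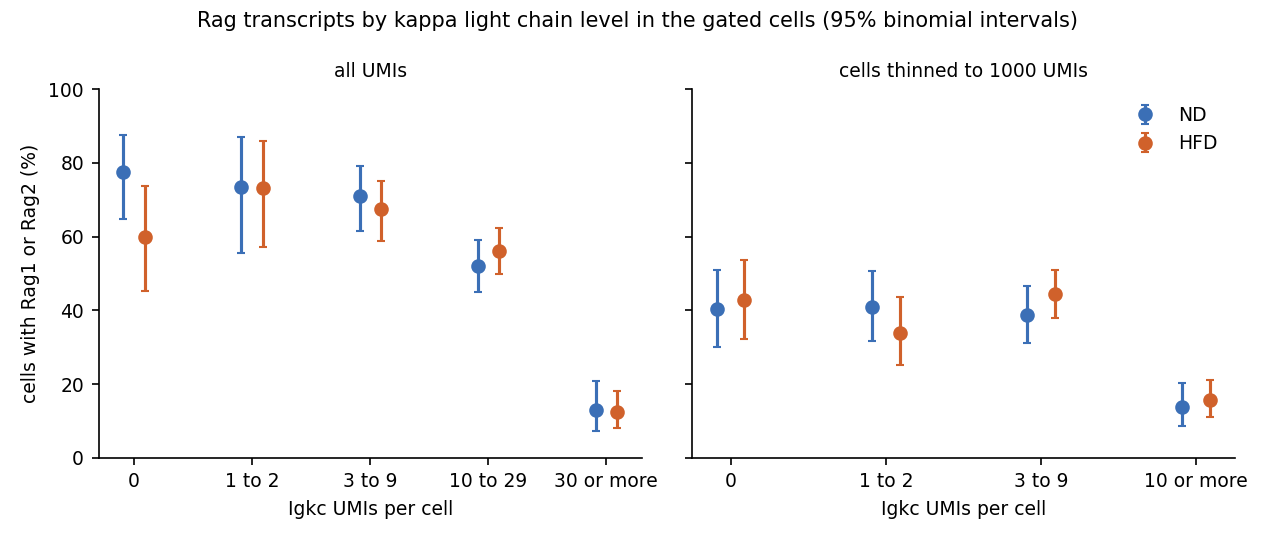
Share of gated cells with a Rag1 or Rag2 UMI (y axis, percent) by the number of Igkc UMIs in the cell (x axis), from all UMIs on the left and after thinning to 1000 UMIs per cell on the right, with exact 95% binomial intervals. In both panels the class with the most Igkc lies lowest, at 12.96% and 12.4% on the left and 13.7% and 15.6% on the right.

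Cells without kappa often had lambda. Among the cells with 0 Igkc UMIs, 24 of 58 in ND and 21 of 50 in HFD held at least 10 lambda UMIs (41.4% and 42.0%), against 10.8% and 8.24% of cells with 10 to 29 Igkc UMIs. With at least 3 UMIs taken as presence, 51.4% of ND cells had kappa only, 10.7% lambda only, 30.7% both and 7.20% neither. The HFD shares were 56.3%, 8.93%, 30.0% and 4.84%, and the intervals of the 2 libraries overlapped in each class. No cell of the pro-B and large pre-B gate reached 3 lambda UMIs (0 of 78 and 0 of 112, with exact upper limits of 4.62% and 3.24%), while kappa was present at that level in 21.8% and 31.3% of them. In T cells 1.87% and 4.73% had kappa only, 1 and 0 cells lambda only. Mature B cells had both in 54.4% and 53.6% by the same limit, more than the gated cells. Of those with at least 10 light chain UMIs, lambda made up 10 to 50% in 52.9% and 48.3%. In the gated cells these shares were 29.6% and 29.3%. Whether cells counted as both made both chains was not tested. Of the gated cells with at least 10 light chain UMIs, lambda made up 90% or more in 28 of 371 (7.55%) in ND and 29 of 499 (5.81%) in HFD. Lambda was taken as the sum over the Iglc genes, since Iglc2 and Iglc3 are near-identical and their UMIs may have been divided between them.

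Variable segments were thinly covered. Igkv segments gave 141 UMIs in 115 ND cells and 125 UMIs in 110 HFD cells, spread over 45 and 50 of the 122 segments in the tables. Igkv19-93 led in both libraries, with 16 and 13 UMIs. Heavy chain segments gave 51 and 59 UMIs, too few to describe their use by cell.

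The gated cells were a slightly larger part of the HFD library. They made up 3.59% of the kept ND cells (exact 95% interval 3.29 to 3.91%) and 4.22% of the kept HFD cells (3.91 to 4.55%), a ratio of 1.18 (1.05 to 1.32). Intervals here and below cover counting error only. Within the B lineage the ratio was near 1. Of the kept cells with at least 2 Cd79 UMIs, 31.97% of 1608 in ND and 33.1% of 1996 in HFD were in the gate, a ratio of 1.04 (0.942 to 1.14), and of the cells in the 3 B stage gates 41.6% and 42.4% were, a ratio of 1.02 (0.935 to 1.11).

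The balance of the 2 poles differed between the libraries. Cells with Il7r only were 47.1% of the gated cells in ND (42.7 to 51.5%) and 37.97% in HFD (34.3 to 41.8%), a ratio of 0.807 (0.706 to 0.922). Cells with Ms4a1 only were 28.8% (24.9 to 32.9%) and 34.3% (30.7 to 38.1%), a ratio of 1.19 (1.00 to 1.42). Mki67 was seen in 114 ND cells (22.2%) and 111 HFD cells (16.8%), a ratio of 0.757 (0.599 to 0.957). The share of gated cells with Il7r only or with Mki67 was thus smaller in HFD. Without the deep cells the 3 ratios were 0.794, 1.21 and 0.687, and their intervals excluded 1. After thinning to 1000 UMIs the ratios were 0.830 (0.690 to 1.00), 1.18 (0.981 to 1.42) and 0.754 (0.552 to 1.03), of the same direction but with intervals that reached 1. Rag1 or Rag2 was seen in 52.1% and 48.1% of cells, a ratio of 0.923 (0.823 to 1.03).

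**Figure D3:**
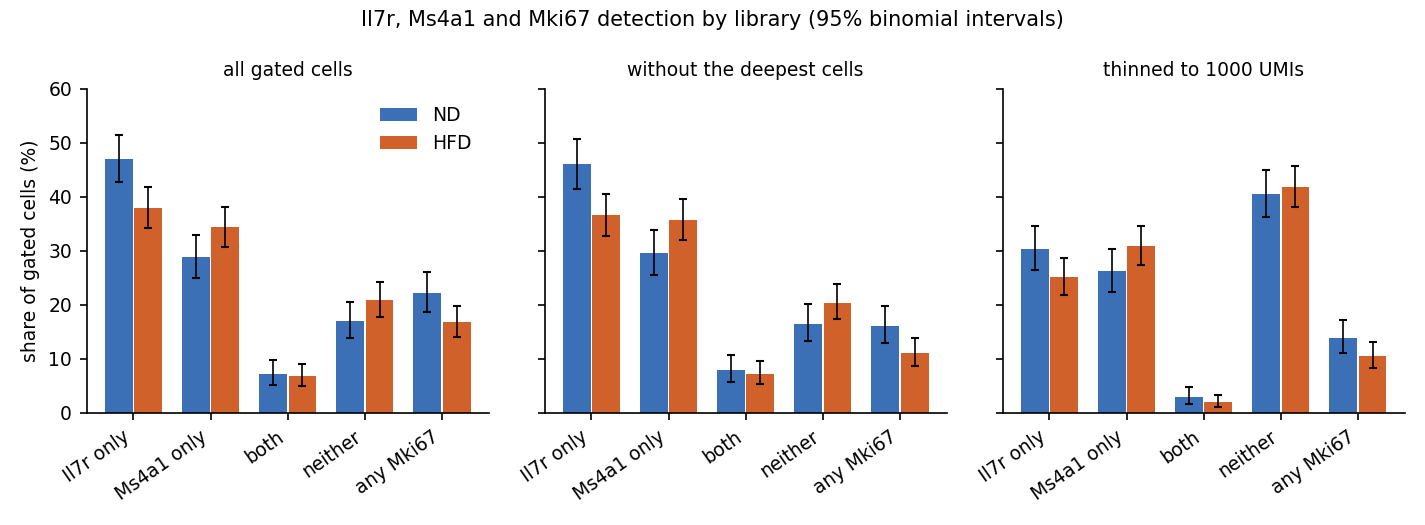
Share of gated cells (y axis, percent) with Il7r only, Ms4a1 only, both, neither, or any Mki67, for all gated cells, without the deepest cells and after thinning to 1000 UMIs per cell, with bars for the ND and HFD libraries and exact 95% binomial intervals. The Il7r-only bar is lower and the Ms4a1-only bar higher in HFD in each panel, at 47.1% against 37.97% and 28.8% against 34.3% for all gated cells.

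Gene levels were compared by summing UMIs over the gated cells of each library, scaling to CPM and taking the log2 ratio of HFD over ND with an exact conditional binomial 95% interval. Calls were given to genes that differed 1.5-fold or more with an interval that left out 0. Of 9976 genes with at least 20 UMIs, 357 were called higher in HFD (3.58%) and 390 lower (3.91%), and the median ratio was -0.01. Without the deep cells 8854 genes could be measured, with 279 called higher (3.15%) and 277 lower (3.13%), of which 164 and 98 were among the calls from all gated cells. In the neighbouring gates, measured the same way, 3.29% of genes were called higher and 3.05% lower in the pro-B and large pre-B gate, 2.89% and 2.95% in mature B cells, and 3.73% and 2.57% in T cells. For the gated cells, the shares of 3.58% and 3.91% are the background for the counts called in each gene list below. The calls describe these 2 libraries, and in such sums fewer cells of a kind and less RNA per cell cannot be told apart.

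Hspa1b, an inducible HSP70 chaperone, had the highest ratio among the called genes open to naming, which leave out haemoglobins and need at least 100 UMIs over both libraries. It had 10 UMIs in 4 ND cells and 142 UMIs in 38 HFD cells, a log2 ratio of 3.69 (2.77 to 4.78) and of 4.48 without the deep cells. Hspa1a had 0 UMIs in ND and 93 UMIs in 24 cells in HFD. Against a floor of 3 UMIs in ND that is a log2 ratio of 4.82, and of 3.46 without the deep cells. The lower limits of the intervals were 4.49 and 3.09. In neutrophils, with a median depth of 5029 and 4887 UMIs, Hspa1b was seen in 0.823% and 4.05% of cells. Hspa1b was also higher in the HFD library in mature B cells (26 and 348 UMIs, log2 ratio 3.53, 2.95 to 4.16) and in T cells (55 and 684 UMIs, 3.52, 3.12 to 3.94), so the gated cells shared this difference with other cells of the library. Of the 15 heat shock genes measured, these 2 were called higher and 0 lower. The abundant chaperone genes Hspa8, Hsp90aa1 and Hsp90ab1 had log2 ratios of 0.14, 0.11 and -0.06, and of 0.43, 0.55 and 0.17 without the deep cells.

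Hspa1a and Hspa1b are near-identical neighbours, so UMIs may have been divided between them by the authors' counting, and their upstream sequences are shown because they differ so little. The 250 bases before each start, from the RefSeq table of build GRCm38.p6, differ at 3 bases. On the minus strand they are chr17:34972157-34972406 for Hspa1a and chr17:34959239-34959488 for Hspa1b. Capitals mark the only match to GAANNTTC, a core of the heat shock element that reads the same on both strands, at bases -104 to -97 from the start. This motif is found in 6.69% of the 32851 upstream windows of that length in the table.
Hspa1a: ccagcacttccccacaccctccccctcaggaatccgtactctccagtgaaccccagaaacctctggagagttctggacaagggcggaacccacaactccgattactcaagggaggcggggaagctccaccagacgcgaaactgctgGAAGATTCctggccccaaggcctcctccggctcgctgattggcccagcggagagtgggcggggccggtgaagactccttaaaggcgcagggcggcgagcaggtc
Hspa1b: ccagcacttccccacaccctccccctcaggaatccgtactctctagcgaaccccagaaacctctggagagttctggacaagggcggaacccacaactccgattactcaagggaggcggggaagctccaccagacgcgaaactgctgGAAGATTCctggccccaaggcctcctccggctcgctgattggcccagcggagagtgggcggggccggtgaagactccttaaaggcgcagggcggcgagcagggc
The match describes these letters only.

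Type I interferon response genes stood higher in the HFD cells. All 24 measured genes of the 32 had ratios above 0, with a median log2 ratio of 0.57 beside -0.01 over all genes, and 11 were called higher and 0 lower. Ifi27l2a, a small interferon-induced protein, had 165 UMIs in ND and 313 in HFD (75.2 and 130 CPM, log2 ratio 0.79, 0.51 to 1.07). Trim30a, a regulator of inflammatory signalling, had 205 and 355 UMIs (0.66, 0.41 to 0.91), and Ifitm3, which restricts virus entry, had 162 and 297 (0.74, 0.46 to 1.02). Isg15, Ifit3, Irf7 and Oasl2 were called on few molecules, 5 to 12 UMIs in ND and 16 to 37 in HFD. Without the deep cells the median was 0.55 over 19 genes, and 5 were called higher and 0 lower. Ifi27l2a stayed called (0.62), while Trim30a was at 0.53 (0.24 to 0.83), under the fold of a call. The same list had medians of 0.43 in mature B cells, 0.44 in T cells and 0.08 in the pro-B and large pre-B gate, where 17 genes could be measured.

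Immediate early genes, which respond within minutes to a stimulus or to handling, also stood higher. Of 19 measured, 17 had ratios above 0, the median was 0.52, and 6 were called higher and 0 lower. Fos had 245 UMIs in 94 ND cells and 460 UMIs in 188 HFD cells (0.77, 0.55 to 1.00), and Junb 278 and 510 UMIs (0.74, 0.53 to 0.96). Both held without the deep cells (0.73 and 0.72), where the median was 0.38, 2 genes were called higher and Tnfaip3 was called lower. Fos and Junb were called higher in cells with Il7r only (1.28 and 0.79) but not with Ms4a1 only (0.45 and 0.26). The list median was 0.45 at both poles, with 4 of 18 and 6 of 19 genes called higher and 0 lower. Over all genes, 365 of 8408 and 263 of 7177 were called higher at the Il7r and Ms4a1 poles, and 280 and 297 lower. In mature B cells Fos had a ratio of -0.10 (-0.30 to 0.09) and Junb of 0.18 (-0.01 to 0.37), and in T cells Fos had -0.28 (-0.48 to -0.07). The mature B list median was 0.16 over 20 genes, with 2 called higher, Nr4a1 among them (0.83, 0.41 to 1.25), and 1 lower. In the pro-B and large pre-B gate 4 of 16 immediate early genes were called higher and 0 lower, with a median of 0.39. Junb had 30 and 84 UMIs there (0.99, 0.37 to 1.64) and Fos 23 and 42 (0.37, -0.40 to 1.17). The difference of these ratios between gates was not tested.

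**Figure D4:**
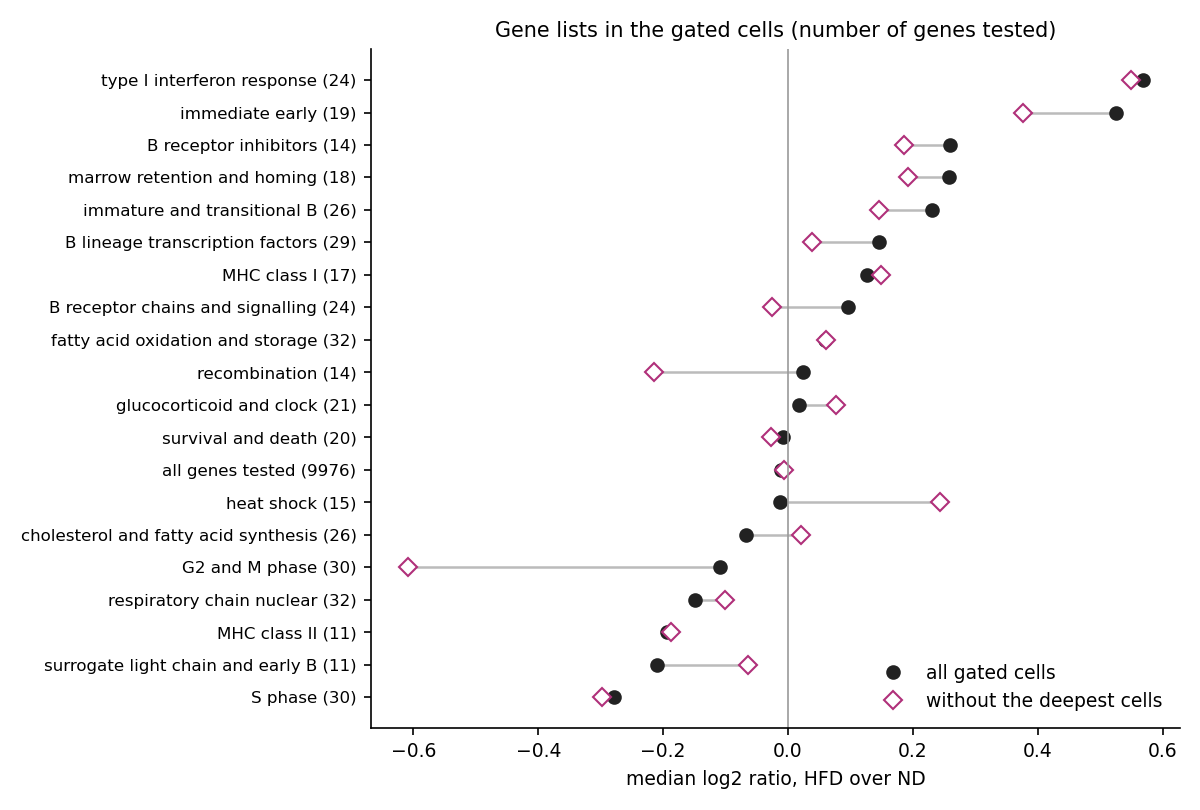
Median log2 ratio of HFD over ND (x axis) for each of the 19 gene lists and for all genes tested (rows, with the number of genes), from all gated cells (filled circles) and without the deepest cells (open diamonds). The type I interferon and immediate early lists lie highest at 0.57 and 0.52, and the G2 and M phase list moves from -0.11 to -0.61 without the deepest cells.

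Among 29 B lineage transcription factors 3 were called higher and 0 lower, with and without the deep cells. The shares over all genes were 3.58% and 3.91%, and 3.15% and 3.13% without the deep cells. Bcl11a, needed for early B cell development, had 382 UMIs in 161 ND cells and 666 in 248 HFD cells (174 and 276 CPM, log2 ratio 0.67, 0.48 to 0.85). Spi1, which encodes PU.1, had 174 and 292 UMIs (0.61, 0.34 to 0.89). It was also called higher in T cells (56 and 100 UMIs, 0.72, 0.23 to 1.22). In mature B cells Spi1 was at 0.49 (0.23 to 0.76), under the fold of a call. Id2, an inhibitor of E proteins, had 74 and 145 (0.84, 0.42 to 1.26). Bcl11a had ratios of 1.04 (0.67 to 1.42, called) in cells with Il7r only and 0.50 (0.23 to 0.78, under the fold of a call) in cells with Ms4a1 only, and stood at 0.05 (-0.09 to 0.19) in mature B cells. Ebf1 and Bach2 had ratios of 0.15 and 0.06. The list median was 0.15, and 0.04 without the deep cells.

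Genes of receptor signalling were nearly level. None of 24 was called in either direction, with a median of 0.10. Ighm had 4295 CPM in ND and 4589 in HFD (0.10), Syk, the kinase that the receptor recruits, 634 and 733 CPM (0.21), and Cd79a 2432 and 3307 CPM (0.44, and 0.30 without the deep cells). Igkc had a median of 13 UMIs per cell in ND and 16 in HFD and a log2 ratio of 0.41 (0.29 without the deep cells). Among 14 recombination genes Rag1 had 276 and 304 CPM (0.14, -0.02 to 0.30) and Rag2 60.2 and 62.3 CPM (0.05, -0.30 to 0.40), neither called. Xrcc5, a subunit of the Ku end-joining complex, was called lower (46 and 21 UMIs, -1.27, -2.08 to -0.49), and was at -1.11 (-2.47 to 0.16) without the deep cells. Dntt was called lower (-0.99), but its UMIs came from 13 ND and 12 HFD cells. The list median was 0.02 with 0 genes called higher and 2 lower, and -0.21 without the deep cells, with 0 higher and 3 lower (Dntt, Atm and Hmgb2). Over all genes 3.91% were called lower, and 3.13% without the deep cells.

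Among genes of immature B cells and of homing, Cd40, Cxcr5, Cd69 and Cnr2 were called higher. Cd40, the receptor for T cell help, had 44 UMIs in 39 ND cells and 109 UMIs in 83 HFD cells (20.1 and 45.3 CPM, log2 ratio 1.17, 0.66 to 1.71), and within cells with Ms4a1 only 33 and 72 UMIs (0.81, 0.20 to 1.45). In mature B cells it had 162 and 175 UMIs (-0.10, -0.42 to 0.21). Cxcr5, the follicle homing receptor, had 14 and 33 UMIs (1.10), Cd69, which retains cells in tissue, 109 and 182 (0.60), and Cnr2, a cannabinoid receptor that holds immature B cells in the marrow sinusoids, 37 and 69 (0.76, 0.17 to 1.38). Over the gated cells as a whole these 4 were called with and without the deep cells. Cxcr5 was not called in cells with Ms4a1 only (0.79, -0.21 to 1.86). In cells with Ms4a1 only, without the deep cells, 0 of 23 immature and 0 of 15 homing genes were called higher. Of these, 1 and 0 were called lower, beside 208 genes called higher and 190 lower of 6029. Cd69 was called higher in cells with Il7r only (0.88, 0.41 to 1.35) and stood at -0.03 (-0.80 to 0.76) in cells with Ms4a1 only. Ccr9 had 2 and 31 UMIs (3.82, 1.84 to 6.93), with 38.7% of the HFD UMIs in 1 cell. Cxcr4, the main retention receptor, was not called (331 and 405 CPM, 0.29). Of 26 immature and transitional genes 3 were called higher and 1, Plac8, lower (-0.70), beside 3.58% and 3.91% of all genes. Plac8 was at -0.13 without the deep cells.

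H2-Eb1, a class II beta chain, was called lower, and no other of 11 class II presentation genes was called in the gated cells as a whole. The list median was -0.19, with 3 of 11 ratios above 0. Over all genes 3.58% were called higher and 3.91% lower. H2-Eb1 had 227 UMIs in ND and 153 in HFD (103 and 63.5 CPM, log2 ratio -0.70, -1.01 to -0.40, and -1.05 without the deep cells). These UMIs lay in 75 ND and 73 HFD cells, with 18.5% of the ND and 9.80% of the HFD UMIs in 1 cell. Taken as a mean over cells, the H2-Eb1 ratio was -0.40, under the fold of a call. In cells with Ms4a1 only H2-Eb1 had 170 and 87 UMIs (-1.28, -1.67 to -0.90). H2-Aa and H2-Ab1 were called lower there too, the latter with 370 and 292 UMIs (-0.66, -0.88 to -0.43). Of the 11 class II genes 3 were called lower and 0 higher there, beside 297 and 263 of 7177 genes. Cd74 was nearly level (971 and 1014 CPM, 0.06). In mature B cells H2-Eb1 was at 888 and 904 CPM, a ratio of 0.03 (-0.06 to 0.11), and the difference between the gates was not tested. The class I genes B2m, H2-D1 and H2-K1 had ratios of 0.21, 0.24 and 0.24, and none of 17 class I genes was called.

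A few fat-handling genes were called higher. Cpt1a, which carries fatty acids into mitochondria for oxidation, had 259 UMIs in 149 ND cells and 532 UMIs in 284 HFD cells (118 and 221 CPM, log2 ratio 0.90, 0.69 to 1.12, and 0.87 without the deep cells). The ratio was 0.77 (0.46 to 1.09) in cells with Il7r only and 1.11 (0.67 to 1.56) in cells with Ms4a1 only. It was 0.82 in mature B cells and 0.81 in T cells. Cd36, a fatty acid receptor, had 32 and 97 UMIs (1.47, 0.88 to 2.09), and Acot1, a thioesterase, 11 and 27 (1.16). The list of 32 as a whole had a median of 0.06, with 5 called higher and 0 lower, and 2 higher of 29 measured without the deep cells. Of 26 genes of cholesterol and fatty acid synthesis Hmgcs1 was called higher (0.75) and Idi1 lower (-0.67), and neither held without the deep cells (0.19 and -0.86, with intervals that included 0). Shares called over all genes were 3.58% higher and 3.91% lower, and 3.15% and 3.13% without the deep cells.

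**Figure D5:**
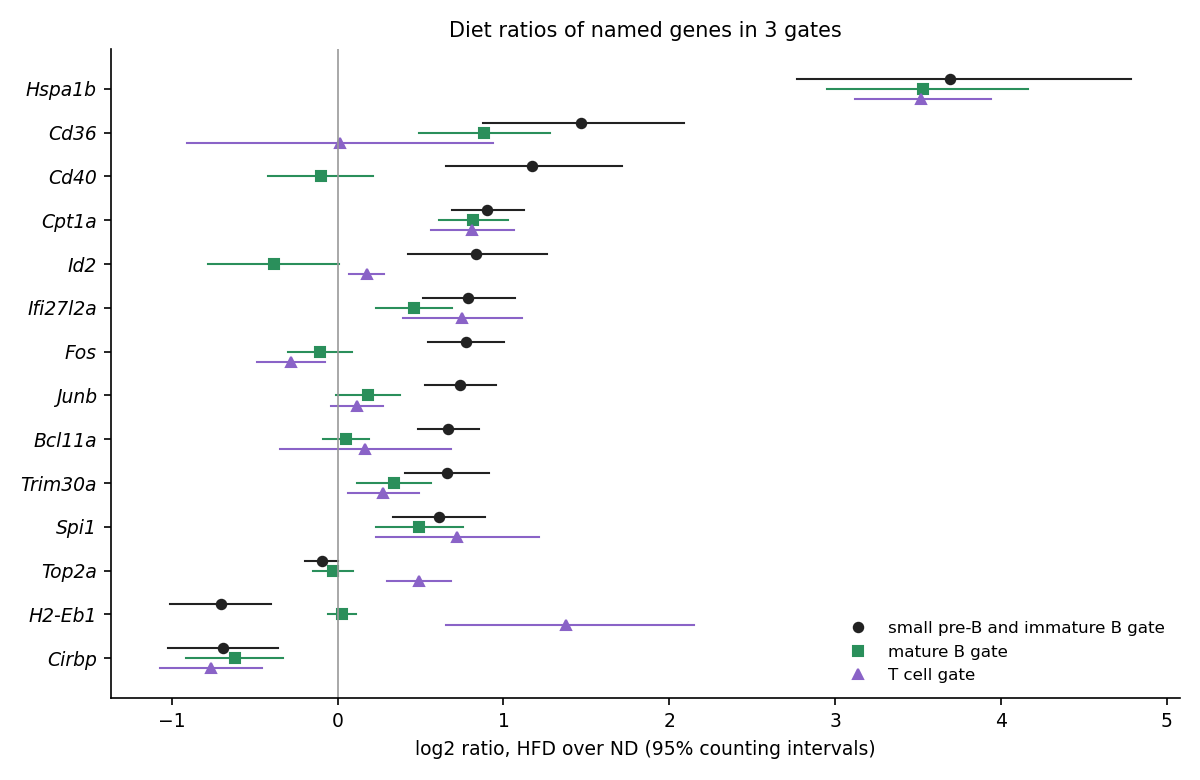
Log2 ratio of HFD over ND (x axis) for named genes (rows) in the small pre-B and immature B gate, the mature B gate and the T cell gate, with exact 95% counting intervals, and no point where fewer than 20 UMIs were counted. Hspa1b, Cpt1a and Cirbp lie on the same side in all 3 gates, while Cd40, Fos and H2-Eb1 in the gated cells (1.17, 0.77 and -0.70) stand apart from mature B cells (-0.10, -0.10 and 0.03).

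Proliferation genes were lower in HFD mainly once the deep cells were left out. Of 30 genes of the G2 and M phases 0 were called in all gated cells (median -0.11), and 17 were called lower and 0 higher without the deep cells (median -0.61). Top2a, which untangles DNA before division, had 731 and 684 CPM (-0.10, -0.20 to 0.00) and a ratio of -0.68 (-0.82 to -0.53) without the deep cells. Mki67 had 456 and 421 CPM (-0.11) and a ratio of -0.62 without them. Among the deep cells themselves 83.0% in ND and 81.5% in HFD had Mki67. The S phase list of 30 genes had medians of -0.28 and -0.30, with 3 and 5 genes called lower and 0 higher. Ung, which removes uracil from DNA, was lower in both (96 and 53 UMIs, -0.99, and -1.14), although it stood at 0.01 after thinning. Within cells with Il7r only, the G2 and M phase median was -0.04 for all cells, with 0 called. Without the deep cells it was -0.50, with 9 of 30 called lower and 0 higher. Of the 7095 genes measured in those cells, 232 were called lower and 234 higher.

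Some other genes held with and without the deep cells. Cirbp, the cold-inducible RNA-binding protein, had 188 and 128 UMIs (85.7 and 53.1 CPM, log2 ratio -0.69, -1.02 to -0.36, and -0.86), with ratios of -0.62 in mature B cells and -0.76 in T cells. Casp9, the initiator caspase of the mitochondrial death pathway, had 78 and 52 UMIs (-0.72, and -0.82 without the deep cells). Bcl2, a survival gene, had 77 and 46 (-0.88, but -0.65 with an interval that included 0 without the deep cells). Bhlhe40 had 3 and 22 UMIs (2.74, 1.00 to 5.12), but was not among the genes with at least 20 UMIs without the deep cells. Tspoap1, Hist2h2be and the chemokine gene Ccl4 were among the 10 lowest ratios (-1.32, -1.27 and -1.66) and stayed called without the deep cells (-1.37, -1.51 and -1.73). None of the 32 nuclear genes of the respiratory chain was called, with a median of -0.15.

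Most of the remaining genes with the largest ratios belong to other lineages. Besides Hspa1b, the 10 highest were Ear1 and Epx, made by eosinophils, and Ltf, Camp, Ngp, Chil1, Lcn2, Mmp8 and Fpr2, made by neutrophils. Ltf had 178 UMIs in 17 ND cells and 868 UMIs in 35 HFD cells (2.15, 1.92 to 2.39), and a ratio of 0.02 (-0.31 to 0.34) without the deep cells. Camp and Ngp went from 1.8996 and 1.84 to -0.07 and -0.04. Elane and Prtn3, of neutrophil progenitors, had ratios of -1.98 and -1.60, and of 0.14 and 0.19 without the deep cells. These ratios thus rested on the deep cells, while Mmp8 (1.63 and 1.22), Chil1 (1.72 and 1.38) and Fpr2 (1.62 and 1.12) were called in both. Whether these transcripts lay within the gated cells was not tested.

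Of 5 antibody tags measured with the RNA, CD16/CD32, the low-affinity Fc receptors, had the highest median in the gated cells. It was 20 molecules per cell in ND and 15 in HFD (quartiles 11 to 44.8 and 8 to 30). Mature B cells had 16 and 9, pro-B and large pre-B cells 12.5 and 9, and T cells 4 and 2. All 4 gates were lower in HFD, as were all kept cells (19 and 14), and the library as a whole held fewer tag molecules (931470 against 1323432 in kept cells). Fcgr2b, the Fc receptor gene of B cells that this tag reads, had the same level in both libraries (107 and 108 CPM). CD105 and CD117 had medians of 0 in the gated cells, against 3.5 and 3 in ND and 3 and 3 in HFD in the pro-B and large pre-B gate.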

How the data were processed

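Single-cell RNA and 5 antibody tags were counted in marrow cells of 1 ND and 1 HFD library. The authors deposited whole-number UMI counts per gene and cell, made with version 1.9.1 of the BD WTA Rhapsody Analysis Pipeline per the file headers, with the genome build and annotation not given in the sources used here. The tables list 22229 (ND) and 22263 (HFD) genes, and a symbol absent from 1 table was taken as 0.

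The quality filter asked for 200 or more genes per cell and no more than 25% of UMIs from mitochondrial genes, and the remaining cells were gated as described in the report. Scrublet (scanpy 1.11.5, expected rate 5%) marked doublets, which were kept, since the rule for the cells has no criterion on doublets. UMIs were summed over gated cells, and genes with at least 20 UMIs were compared. Shares have exact Clopper-Pearson 95% intervals. A count of 0 was set at a floor of 3 UMIs over the group. All intervals treat UMIs or cells as independent, and with 1 library per diet no test was made. Python 3.11.15, numpy 2.4.6, scipy 1.17.1, pandas 2.3.3 and matplotlib 3.10.9 were used.

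The named genes are the 10 highest and 10 lowest ratios among called genes with at least 100 UMIs, leaving out genes of antigen receptors, haemoglobins, ribosomes and mitochondria, numbered gene models and genes under 10% of their level in all other kept cells. They also include the gate genes, up to 4 called genes with the largest ratios and the 3 most abundant genes of each of 19 lists, and the 10 highest and lowest against each neighbouring gate. The cells, lists and rules were chosen with earlier results of these data known. The limit for deep cells, the split by Il7r and Ms4a1 and the light chain classes were chosen after the values were seen, as were the remaining genes named.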

Additional observations from a re-analysis of the deposited data

Results flagged for a closer look

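Granule genes of neutrophils had opposite directions between the libraries in the gated cells and in the pro-B and large pre-B gate. The difference between gates was not tested. In the small pre-B and immature B gate the log2 ratios of HFD over ND were 1.8996 for Camp, 1.72 for Chil1, 1.62 for Fpr2, 1.65 for Lcn2, 2.15 for Ltf and 1.84 for Ngp. In the pro-B and large pre-B gate, with 78 and 112 cells, they were -4.76 for Camp (249 and 13 UMIs), -1.50 for Chil1 (18 and 9), -1.72 for Fpr2 (21 and 9), -2.96 for Lcn2 (214 and 39), -3.80 for Ltf (108 and 11) and -4.15 for Ngp (689 and 55). Without the deep cells the gated cells had -0.07 for Camp, -0.04 for Ngp, 0.02 for Ltf and 0.24 for Lcn2, but 1.38 for Chil1 and 1.12 for Fpr2. All these genes were called higher in mature B cells and in T cells. The mature B ratios were 1.43 for Camp, 3.28 for Chil1, 2.22 for Fpr2, 2.13 for Lcn2, 2.77 for Ltf and 1.71 for Ngp. In the same order the T cell ratios were 1.62, 0.68, 0.80, 1.21, 0.80 and 1.14.

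Against mature B cells 3 progenitor genes had opposite directions, again with no test of the difference. Elane, a neutrophil elastase, had a ratio of -1.98 in the gated cells and 1.13 in mature B cells (274 and 695 UMIs). Prtn3, proteinase 3, had -1.60 and 1.01 (387 and 903 UMIs in mature B cells). Kit, the stem cell factor receptor, had -0.70 in the gated cells (123 and 83 UMIs) and 0.69 in mature B cells (45 and 84 UMIs). Without the deep cells Elane and Prtn3 were at 0.14 and 0.19 in the gated cells, and Kit was at -0.76 with an interval of -2.76 to 1.11, so it was not called.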

How the results depend on the processing

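The share ratio of the gated cells ranged from 1.16 to 1.24 over 6 alternatives. Leaving out the deep cells, an alternative chosen after seeing the data, moved 52 of 116 named ratios and reversed 6 (Camp -0.065, Ngp -0.042, Elane 0.14, Prtn3 0.19, Nkg7 0.49, Gstm1 0.13). It put the list medians of G2 and M phase at -0.61, transcription factors at 0.039 and heat shock at 0.24. The mean over cells moved 46 named ratios and gave medians of -0.28 for G2 and M phase, -0.10 for S phase, -0.0180 for transcription factors and 0.17 for heat shock. Thinning to 1000 UMIs, with fewer genes measured, left 188 genes called higher and 153 lower, of which 74 and 28 were among the 357 and 390. It moved 62 named ratios, put Ung at 0.012 and gave medians of -0.29 for recombination, 0.022 for transcription factors, -0.33 for G2 and M phase, 0.17 for heat shock, 0.30 for immediate early genes, -0.10 for fat oxidation, 0.16 for cholesterol synthesis and -0.0184 for the respiratory chain. Removing Scrublet doublets moved 16 named ratios and gave -0.24 for G2 and M phase, asking for no Igll1 or Vpreb1 gave -0.33 for S phase, and asking for 2 early UMIs gave -0.26 for class II. A minimum of 100 UMIs left 178 genes called higher and 165 lower because fewer genes were tested. The causes of the other changes were not tested. No named ratio moved with median-of-ratios scaling, other totals or no cell filter. No paired analysis was possible because each diet has 1 library. Genes near 20 UMIs have wide intervals, and no interval holds the spread between animals.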
